A study of Mus musculus with 3 samples.

Results

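The genes described here are those of the endocrine cells of the gastric mucosa: the hormone genes Ghrl (ghrelin), Sst (somatostatin) and Gast (gastrin), the histamine-forming enzyme Hdc, the secretory granule proteins Chga and Chgb (chromogranins A and B), and Cckbr, the receptor for gastrin. They were chosen by name from the array's gene names and cover 7 of the 27677 gene names on the design, with 10 probes printed at 19 of its 41534 gene spots. All 7 were measured on both arrays analysed from scanner values, that is, at least 1 probe of each was well above background in at least 1 channel.

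The study compared tumours of mice transgenic for AID (activation-induced cytidine deaminase), the enzyme that mutates antibody genes in B cells, on 2-colour Agilent arrays with 1 array per organ. The liver array held a liver tumour and nontumour liver of the transgenic mouse that bore it, and the stomach array a gastric tumour and nontumour stomach of its own transgenic mouse, so tumour and control carry the transgene in both. The lung array held a lung tumour of a transgenic mouse against normal lung of a wild-type mouse, which lacks the transgene. The lung values come solely from the regulated genes that the authors' deposited table lists. The transgene's promoter, the age of the mice and whether animals were pooled are not given in the sources used. The direction of the ratios is not settled: the labels put the tumour in Cy3 (green) and the other tissue in Cy5 (red), but the authors' deposited table places Cy5-bright spots under headings for genes raised in tumours. Each ratio below is log2(Cy5/Cy3), named by channel. "Cy3-high" means higher in the nontumour tissue by the table's headings and higher in the tumour by the dye labels. With 1 array per organ no test between tissues was possible, no p-value is given, and precision is limited by the number of arrays.

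Gastric endocrine cells are scattered singly among the glands. X/A-like cells release ghrelin, which stimulates appetite and growth hormone release, D cells release somatostatin, which restrains acid secretion, and G cells of the antrum release gastrin. Gastrin acts through Cckbr on parietal cells and on enterochromaffin-like (ECL) cells, which make histamine from histidine with Hdc and in turn drive acid secretion. Chromogranins are stored with hormones and amines in the dense granules of endocrine cells and neurons and serve as general endocrine markers.

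Both arrays were bright enough to read most genes. Between 82.3% and 90.0% of gene spots were well above background in each channel, and probes printed several times varied little from spot to spot, with a median SD (log2) of 0.05 in liver and 0.06 in stomach over 40 probes. The tissues matched their labels by marker probes. On log2 levels scaled between arrays, Alb, Trf, Apoa1 and Ttr, which hepatocytes secrete, were 9.03- to 450-fold brighter on the liver array, and the gastric genes Atp4a, Atp4b, Cblif and Pgc 20.0- to 141-fold brighter on the stomach array. Alb was saturated in both channels of the liver array, which compresses its value. The ratios of the 2 arrays had a Pearson correlation of 0.10 over 24766 genes.

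The sequences just upstream of the transcription starts are shown for description, since 5 of the genes were 2-fold Cy3-high on the stomach array. They are 150 bases before the start from RefSeq, build GRCm38.p6, read 5′ to 3′ on the gene's strand. Capitals mark the cyclic AMP response element (CRE), full TGACGTCA or its core TGACG (reverse CGTCA), and the TATA box TATAAA (reverse TTTATA), each searched on both strands. RefSeq lists 4 starts for Ghrl, of which the most upstream is printed.
Sst (chr16:23890845-23890994, minus strand): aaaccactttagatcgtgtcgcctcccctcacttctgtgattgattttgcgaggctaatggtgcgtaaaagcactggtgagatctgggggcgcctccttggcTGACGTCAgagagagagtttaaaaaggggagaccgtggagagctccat
Chgb (chr2:132781492-132781641, plus strand): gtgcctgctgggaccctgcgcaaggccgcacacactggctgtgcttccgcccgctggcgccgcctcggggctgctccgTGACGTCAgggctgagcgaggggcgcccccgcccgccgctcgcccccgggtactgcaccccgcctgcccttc
Chga (chr12:102554791-102554940, plus strand): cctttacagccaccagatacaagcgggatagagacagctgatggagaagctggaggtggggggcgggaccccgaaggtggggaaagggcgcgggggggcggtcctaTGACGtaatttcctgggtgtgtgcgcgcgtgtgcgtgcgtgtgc
Hdc (chr2:126618679-126618828, minus strand): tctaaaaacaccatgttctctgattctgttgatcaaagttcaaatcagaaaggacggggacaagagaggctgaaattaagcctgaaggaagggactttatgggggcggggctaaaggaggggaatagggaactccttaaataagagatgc
Ghrl (chr6:113719912-113720061, minus strand): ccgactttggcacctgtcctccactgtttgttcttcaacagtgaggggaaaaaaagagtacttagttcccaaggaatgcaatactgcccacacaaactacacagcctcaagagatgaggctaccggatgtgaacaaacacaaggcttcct
Gast (chr11:100334257-100334406, plus strand): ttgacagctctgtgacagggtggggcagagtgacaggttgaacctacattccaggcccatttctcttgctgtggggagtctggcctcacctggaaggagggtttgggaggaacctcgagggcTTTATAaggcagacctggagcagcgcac

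Sst and Chgb each held a full CRE, beginning 48 and 72 bases before the start. A full CRE was found in 1.36% of all 32851 promoter windows of this length. Chga held the core TGACG 44 bases before its start; the core, which any full CRE also contains, was in 13.3% of windows. None of the Ghrl, Hdc, Gast or Cckbr windows had the core. Gast held the only TATA box of the 7 genes (7.57% of windows), as TTTATA on the printed strand. The GC box GGGCGG (reverse CCGCCC) was in the Chga, Chgb and Hdc windows and in 28.6% of all windows. These matches describe letters in a window and were not tested against the expression values.

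On the stomach array, 5 of the 7 genes were at least 2-fold brighter in Cy3, against a background of 1.41% of the 25322 measured genes. Ghrl, Chga and Chgb were 8.52- to 13.2-fold Cy3-high, Hdc 4.37-fold and Sst 3.81-fold. Gast and Cckbr had nearly equal signals in both channels. None of the 7 was 2-fold Cy5-high (background 0.873%). The median of the 7 log2 ratios was -2.13, beside 0.0012 over all measured genes. The genes were chosen with these results known, so the count is a description. In tissue of mixed cells, a difference in endocrine cell number and one in RNA per endocrine cell cannot be told apart.

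Among the hormones, Ghrl was read by 2 probes on chromosome 6, at 113878037 to 113880044 and 113877184 to 113878026 (the sources used here name no build for probe coordinates; both spans cross more genome than the probe is long). The former had a processed intensity, that is, after the scanner software's background and dye correction, of 147000 in Cy3 and 13300 in Cy5. The latter had 208000 in Cy3 and 17700 in Cy5. Both probes thus read far more in Cy3, and their log2 ratios were -3.44 and -3.56. The gene's ratio was -3.50 (SD 0.08 between 2 probes, scanner error 0.31), or 11.3-fold, the rank of 19 counted from the most Cy3-high gene.

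Sst had 1 probe, on chromosome 16 at 23547994 to 23548053. Its processed intensity was 23600 in Cy3 and 5740 in Cy5, and its log2 ratio was -1.93 (scanner error 0.22), or 3.81-fold Cy3-high. Its Cy5 signal was still well above background, and it had the smallest ratio of the 5 Cy3-high genes, at rank 109.

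Gast, in contrast, was read by 1 probe on chromosome 11 at 100445531 to 100445590 with 5620 in Cy3 and 5530 in Cy5. Its log2 ratio was -0.03 (scanner error 0.18). The channels did not differ beyond the error, although the probe was brighter than 91.7% of measured genes on the stomach array. The same probe was 10.7-fold brighter in the brighter liver channel than in the stomach Cy3 channel. Whether it reads gastrin alone was not tested, which limits its stomach ratio too. Gastrin comes from the G cells of the antrum, whereas ghrelin and ECL cells lie mainly in the acid-secreting body of the stomach, and the sources used here do not say which region of the stomach was sampled for either tissue.

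**Figure D1:**
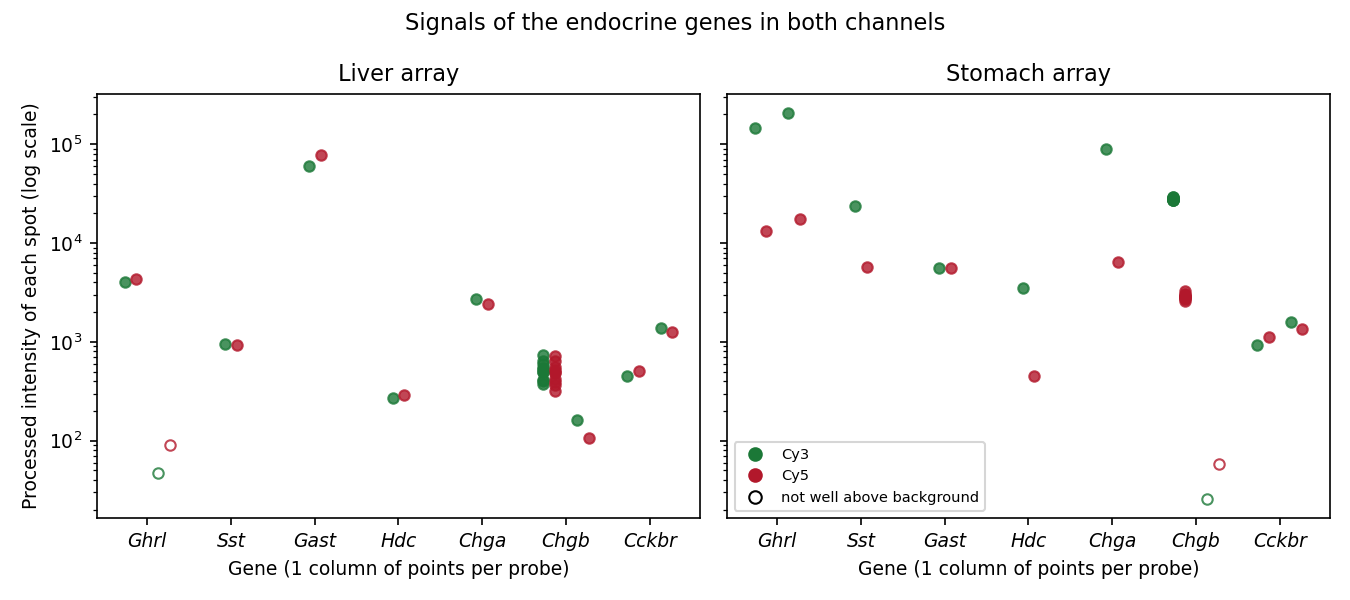
Processed intensity (vertical axis, log scale) of every spot of the 7 genes in Cy3 (green) and Cy5 (red) on the liver array (left) and the stomach array (right). Each gene has 1 column of points per probe, and open points were not well above background. On the stomach array Cy3 lies above Cy5 for Ghrl, Sst, Hdc, Chga and the brighter Chgb probe, while Gast and Cckbr nearly coincide. On the liver array the channels lie close together, except at the dim probes of Ghrl (46.6 in Cy3, 90.5 in Cy5) and Chgb (161 and 107).

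Both granule proteins were strongly Cy3-high on the stomach array, and Chga did not differ from Ghrl beyond the errors. Chga had 1 probe, on chromosome 12 at 100060167 to 100060226, with 89700 in Cy3 and 6360 in Cy5. Its log2 ratio of -3.73 (scanner error 0.33), or 13.2-fold, was the lowest of the 7 genes and had rank 17.

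Chgb had a probe printed at 10 spots on chromosome 2 at 132535820 to 132535879. Over these spots the Cy3 intensity ran from 27100 to 29500 and the Cy5 intensity from 2600 to 3260, without overlap. The log2 ratios of the spots lay between -3.18 and -2.97, with a mean of -3.09 (SD 0.07 between spots, scanner error 0.30), or 8.52-fold Cy3-high. The repeats are spots of 1 hybridisation and show the precision of the reading, not the variation between animals.

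The other Chgb probe lies at 132524707 to 132524766 and was designed on a complementary DNA from neonatal cortex. It was not well above background in either stomach channel, with processed intensities of 26.0 and 58.1, and was left out. Averaging it in, as happens with no background filter, would turn the gene's ratio to -1.56.

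Hdc had 1 probe on chromosome 2 at 126334633 to 126334692. Its processed intensity was 3520 in Cy3 and 452 in Cy5, well above background in both, and its log2 ratio was -2.13 (scanner error 0.38), or 4.37-fold Cy3-high, at rank 86. It was the dimmest of the 5 Cy3-high genes, and the offset of 50 added to the background-corrected signals here pulls dim ratios towards 0. The authors' deposited table, which has no such offset, gives a fold of 7.80.

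Cckbr had 2 probes on chromosome 7. The probe at 101490234 to 101490453 read 935 in Cy3 and 1130 in Cy5, and that at 101492488 to 101492547 read 1580 and 1340. The probes leaned in opposite directions, with log2 ratios of 0.16 and -0.16, and the gene's ratio was -0.0037 (SD 0.23 between 2 probes, scanner error 0.36). No difference between the tissues was detectable for the receptor. Its level in the Cy3 channel of the stomach was only 1.23-fold that of the brighter liver channel. How well these probes read the receptor was not tested.

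In order, the stomach ratios ran from Chga through Ghrl, Chgb, Hdc and Sst to Gast and Cckbr. Chga and Ghrl, Hdc and Sst, and Gast and Cckbr differed from each other by less than their scanner errors. Chgb and Ghrl lay 0.41 log2 units apart, more than either scanner error (0.30 and 0.31), and 0.22 apart, less than either, with the scanner software's ratios. Between Chgb and Hdc the gap of 0.96 exceeded both errors, but with the scanner software's ratios it fell to 0.33 (-3.29 and -2.96) and that between Hdc and Sst widened from 0.20 to 0.92, so the place of Hdc rests on how the background of a dim probe is handled. Between Sst and Gast the gap of 1.90 exceeded the errors.

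The authors' deposited table listed 15 of the 19 spots of these genes for the stomach, all under its heading for genes lowered in the tumour, and none under that for raised genes. Those lists hold 3.33% and 4% of gene spots and begin at 1.35-fold. None of the 19 spots was on the liver lists (1.04% lowered, 1.25% raised). The 15 spots were both of Ghrl, those of Sst, Hdc and Chga, and the 10 of the repeated Chgb probe. These spots stand for 5 genes, and the 10 repeats read 1 probe, so they are not separate members. The deposited values are those of the scanner file, so they are no separate measurement.

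**Figure D2:**
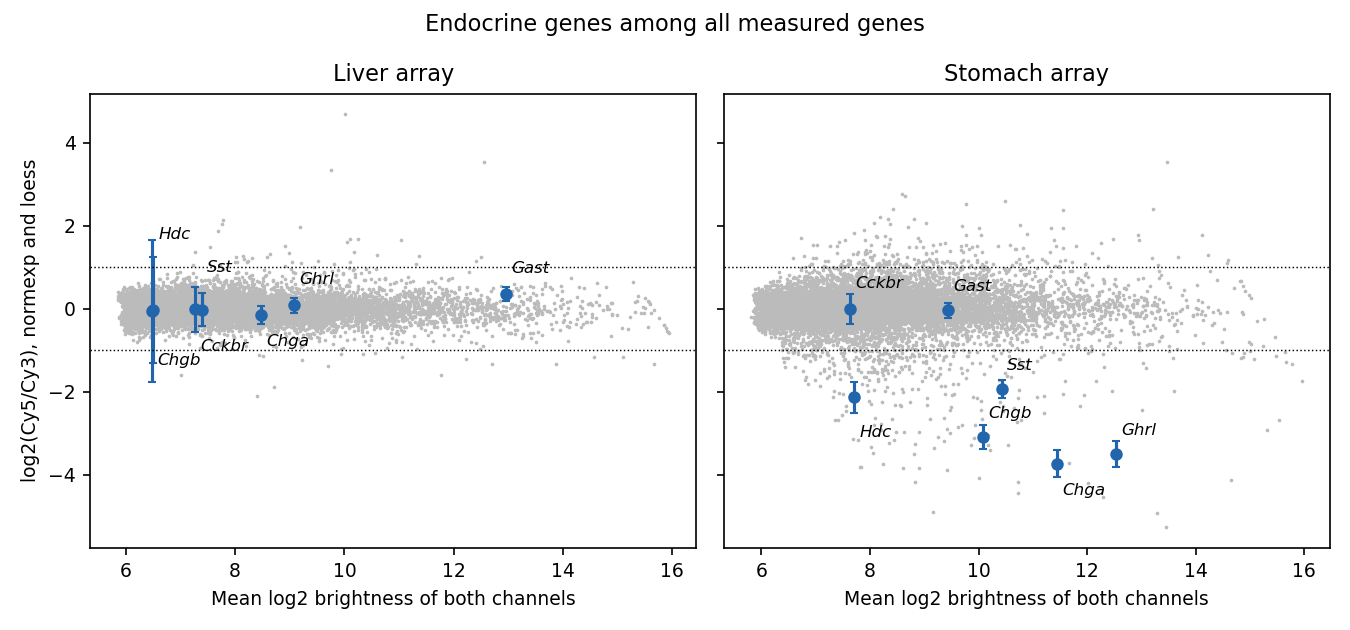
log2(Cy5/Cy3) (vertical axis) against the mean log2 brightness of both channels (horizontal axis) for all measured genes (grey) and the 7 endocrine genes (blue; bars show the larger of the SD between probes and the scanner error). Dotted lines mark 2-fold. On the liver array all 7 lie between the lines, from -0.14 to 0.35, and on the stomach array 5 lie below -1.

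How the arrays were processed moved the size of these ratios but not which genes passed 2-fold. Over 7 settings (the one used here and 6 others) the stomach ratios ran from -3.82 to -2.89 for Chga, from -3.56 to -2.53 for Ghrl, from -3.29 to -1.56 for Chgb, from -2.96 to -1.87 for Hdc and from -2.04 to -1.22 for Sst. Gast ran from -0.06 to 0.54 and Cckbr from -0.16 to 0.23, so neither reached 2-fold in any setting, and the sign of both changed. Centring the array on its median with no loess curve gave the smallest ratios of Ghrl (5.78-fold), Chga (7.40-fold), Sst (2.33-fold) and Hdc (3.65-fold); that setting leaves the dependence of the dye ratio on brightness in the values.

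**Figure D3:**
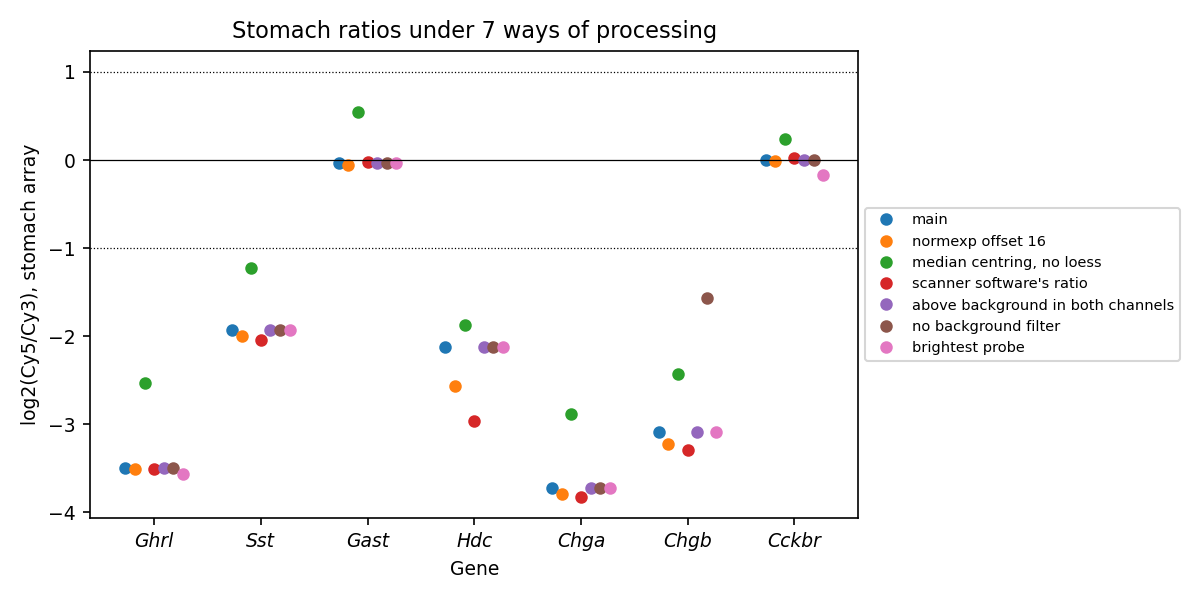
log2(Cy5/Cy3) on the stomach array (vertical axis) of each of the 7 genes under 7 ways of processing (colours; "main" is the setting used in the text). Solid and dotted lines mark 0 and 2-fold. Ghrl, Sst, Hdc, Chga and Chgb stay below -1 under all 7, and Gast and Cckbr stay between the dotted lines.

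On the liver array none of the 7 genes reached 2-fold in either direction (background 0.0703% Cy3-high and 0.152% Cy5-high of 25606 genes), under any of the 7 settings. Their median log2 ratio was -0.02, beside 0.01 over all genes. Gast had the largest ratio, with 60000 in Cy3 and 77500 in Cy5. Its log2 ratio was 0.35 (scanner error 0.17), or 1.28-fold Cy5-high, which exceeded its measurement error. It rose to 0.74 with median centring alone, and 0.35 was the smallest value over the settings.

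The other 6 genes had liver ratios within their errors of 0. Chga read 2710 in Cy3 and 2410 in Cy5, with a log2 ratio of -0.14 (scanner error 0.21). Ghrl had a ratio of 0.09 (error 0.18), Chgb -0.05 (error 1.72) and Hdc -0.02 (error 1.28). The Chgb average includes the probe left out for the stomach, which read 161 in Cy3 and 107 in Cy5 (scanner error 2.69). Alone, the Chgb probe printed at 10 spots had -0.06 (SD 0.07 between spots, scanner error 0.75). Sst read 956 and 939, with a ratio of -0.02 (error 0.41). Cckbr had -0.01 (SD 0.11 between 2 probes, scanner error 0.54). No difference was detectable in liver for these 6 genes. Hdc and Chgb, the latter averaged over its 2 probes, were dim, brighter than 23.9% and 22.9% of measured genes.

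The liver signal of 2 of these genes needs caution. Only 1 of the Ghrl probes was well above background in liver, at 4030 in Cy3 and 4280 in Cy5. The other read 46.6 and 90.5, not well above background, although it was the brighter of the pair on the stomach array. Gast was brighter in liver than in stomach, and brighter than 99.2% of the genes measured on the liver array, although gastrin is known as a hormone of the antrum. Whether this single probe also binds another liver transcript was not tested.

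Set side by side on log2 levels scaled between the arrays, over the probes measured on both, 5 genes were brightest in the Cy3 tissue of the stomach. Compared with the brighter liver channel, Ghrl was 34.5-fold higher there, Chga 29.4-fold, Chgb 27.5-fold, Sst 16.4-fold and Hdc 4.67-fold. The Cy5 tissue of the stomach came next for each: its level of Chga, 9.74, lay between 13.47 in the Cy3 tissue and 8.59 in the brighter liver channel. For Hdc the Cy5 tissue of the stomach, at 6.61, was close to liver at 6.51 and 6.49. Cckbr varied little across the 4 tissues, from 7.29 to 7.59. Gast had the reverse order and was 10.7-fold brighter in the brighter liver channel than in the Cy3 tissue of the stomach. These levels compare different arrays with 1 sample each. The Ghrl fold rests on 1 probe, since the probe brighter in stomach was not well above background in liver and was left out.

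For lung, the authors' deposited table listed 1 of the 19 spots, the Hdc probe, under its heading for genes lowered in the tumour. Its ratio there was 6.98-fold Cy3-high (-2.80 on the log2 scale). The listed lung spots of that direction make up 9.78% of gene spots, and 1 of 19 spots is no more than that background. None was under the heading for raised genes, which holds 5.51%. The lung lists begin at 2-fold, so the other 6 genes have no lung value here, which does not show that they were unchanged. Hdc was thus Cy3-high on the stomach array and, by 1 listed spot against wild-type lung, in the lung table. In liver its scanner error of 1.28 was too large for a 2-fold difference to be seen.

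Mast cells, basophils and neutrophils also make histamine through Hdc, so their markers are given beside it. The background on the stomach array was 1.41% of measured genes 2-fold Cy3-high and 0.873% Cy5-high. On the stomach array all 11 mast cell and basophil markers were measured, of which 2 were 2-fold Cy5-high and none Cy3-high, with summed processed intensities of 11026 in Cy3 and 14565 in Cy5. The mast cell proteases Mcpt2 (1.54, scanner error 0.74) and Mcpt1 (1.17) lay on the side opposite to Hdc. Of 8 neutrophil markers 7 were measured, with a median of -0.12. S100a9 (-1.93) and Ltf (-1.16) were 2-fold Cy3-high, and S100a8 had -0.83 (error 0.71). The list sums were 15391 in Cy3 and 5420 in Cy5, and S100a9 (7320) and Ltf (6340) made up most of the former. Cxcr2 (-0.06), Csf3r (-0.01), Ngp (-0.12) and Camp (0.16) lay within their errors of 0. The part of neutrophils in the Hdc ratio was not tested. In the authors' deposited table for lung, the receptor gene Kit was Cy3-high (-2.70), as Hdc was, while Mcpt1 (3.99) and Mcpt4 (3.31) were Cy5-high. The neutrophil genes Ltf (1.64) and Mmp8 (1.31) were also Cy5-high in that table for lung, opposite to Hdc, and no neutrophil marker was listed on the Cy3 side.

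Other lists of the endocrine system are described beside these genes. Over all measured genes of the stomach array 1.41% were 2-fold Cy3-high and 0.873% Cy5-high, the background for each list below. Of 21 other gut hormones and peptides, all measured, 3 passed 2-fold on the Cy3 side and none on the Cy5 side; the list median was -0.16. Nucb2, the precursor of nesfatin-1, which rat ghrelin cells also make, read 5320 in Cy3 and 1740 in Cy5 (-1.38, scanner error 0.23). Vip, a transmitter of gut neurons, had a ratio of -1.19 with a scanner error of 1.49, larger than the ratio; its Cy5 signal was not well above background, which gives a bound of at least 2.16-fold that leaves this error aside. Nmu, the precursor of neuromedin U, had -1.04 with a scanner error of 1.16, larger than the ratio. The other 18, which include the hormones Gcg (-0.19), Cck (-0.05) and Pyy (-0.64, error 1.14), lay below 2-fold.

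Of 25 genes for granule proteins, prohormone processing and amine handling, 23 were on the design and 22 measured. On the stomach array 3 passed 2-fold, all on the Cy3 side, and the list median was -0.14. Furin, a protease that cleaves many precursor proteins in most cell types, read 104000 in Cy3 and 7520 in Cy5 (-3.72, scanner error 0.33). That is as far to the Cy3 side as Chga, but the value rests on 1 probe, whereas 2 were measured in liver. Cpe, the carboxypeptidase that trims peptide hormones, read 4905 in Cy3 and 1390 in Cy5 (-1.48, scanner error 0.26 over 2 probes), and Scg5, the chaperone of the prohormone convertase Pcsk2, had -1.07 (scanner error 0.66). The convertases themselves were below 2-fold, with Pcsk1 at -0.42 (error 2.32) and Pcsk2 at -0.33 (error 0.29). Slc18a2, which loads histamine into the vesicles of ECL cells, had -0.70 (error 0.61, 2 probes).

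Of 20 endocrine transcription factors 19 were measured on the stomach array, and their median of 0.02 lay near that of all genes. Nkx6-3, which the mouse antrum needs to form gastrin cells, read 3540 in Cy3 and 13600 in Cy5 and was 2-fold Cy5-high (1.79, scanner error 0.22). Isl1, a factor of gut endocrine cells and neurons, was Cy3-high (-1.04, error 0.30). Neurog3, which starts the endocrine programme, had -0.41 (error 0.55).

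Among receptors 1 passed 2-fold. Of 21 receptors and regulators 19 were on the design and 18 measured on the stomach array, with a median of -0.01. Cckar, the receptor for cholecystokinin and a relative of Cckbr, was 2-fold Cy3-high, with 5370 in Cy3 and 795 in Cy5 (-2.24, scanner error 0.31). The ghrelin receptor Ghsr had -0.0014 (error 2.56, so it was hardly measured), the somatostatin receptor Sstr2 -0.57 and the histamine receptor Hrh2, through which ECL cells stimulate parietal cells, -0.26. On the liver array none of the genes on these 4 lists reached 2-fold in either direction, and their list medians lay between 0.02 and 0.06.

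**Figure D4:**
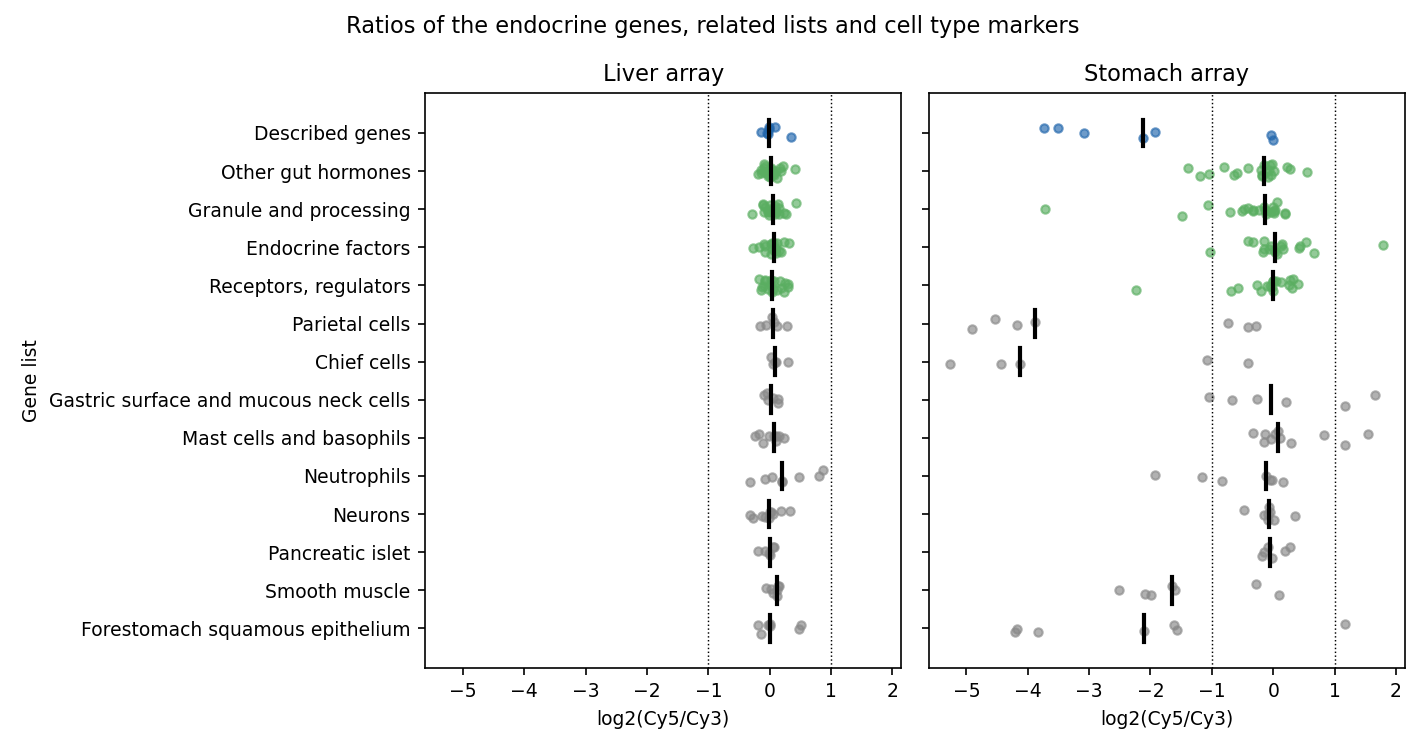
log2(Cy5/Cy3) (horizontal axis) of each measured gene in the 7 described genes (blue), 4 related lists (green) and 9 lists of cell type markers (grey), on the liver array (left) and the stomach array (right). Thick bars are list medians and dotted lines mark 2-fold. On the stomach array the described genes, parietal, chief, smooth muscle and squamous markers have medians from -4.13 to -1.65, and the related lists from -0.16 to 0.02.

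Markers of several other gastric cell types were also Cy3-high on the stomach array, against the background of 1.41% of measured genes. Of 7 parietal cell markers 4 were 2-fold Cy3-high, with a summed processed intensity of 793738 in Cy3 and 31622 in Cy5, and of 5 chief cell markers 4 were, with a median of -4.13. Smooth muscle markers (5 of 7 Cy3-high, median -1.65) and markers of the squamous forestomach (6 of 7, median -2.11, 1 Cy5-high) lay on the same side. The 6 measured markers of gastric surface and mucous neck cells had a median of -0.03 and lay on both sides, with Gkn3 (1.66) and Tff2 (1.17) Cy5-high and Tff1 (-1.05) Cy3-high. The part that these cell types have in the endocrine ratios was not tested.

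Neurons and pancreatic islets also hold chromogranins, somatostatin or ghrelin. On the stomach array 8 of 12 neuron markers were measured, none reached 2-fold, and their summed intensity was 12068 in Cy3 and 11527 in Cy5. Of 6 islet markers none reached 2-fold, with sums of 3476 and 3360, and the insulin genes Ins1 and Ins2 read at most 179 in either channel.

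The genes closest to each described gene were sought over 4 values, the log2 ratio and mean log2 brightness on both arrays, among 24759 genes. Nearest to Ghrl was Furin (distance 0.92), which also followed closely behind Lor for Chga (0.77 for Lor, 0.83 for Furin). Chgb was nearest to Cnfn (0.38), a gene of cornified epithelium, Tmed6 (0.45) and Krt10 (0.46), and Sst to Krt14 (0.39). Hdc was nearest to Stfa3 (0.22) and Col17a1 (0.37). Several of these are genes of squamous epithelium, which lines the mouse forestomach. Gast was nearest to Hoxc5 (0.28), whose probe was likewise bright in liver. Cckbr had very close neighbours, such as Tomm34 (0.04), since many genes of its brightness had ratios near 0.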

How the data were processed

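Per the labels' protocols, Cy3 or Cy5 was incorporated during linear amplification of total RNA with an Agilent kit. Per the submitters' processing notes and the file headers, Agilent Feature Extraction 8.5.1.1 quantified the scans. The authors' deposited intensity columns hold raw spot means and local backgrounds, and processed intensities corrected for background and dye. The deposited log10 ratio is red over green processed intensity; the deposited p-value of each spot, per the file headers, comes from the scanner software's error model and was not used. Scanner values of 2 of the 3 samples were analysed.

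Raw intensities were corrected with normexp (offset 50) and normalized within each array by loess, with control spots at weight 0, in limma 3.58.1 under R 4.3.3; simulated arrays with known changes were used to check this. Control spots, outlier spots, probes not well above background in either channel and probes saturated in both were left out. Spots of a probe and then probes of a gene were averaged. Errors are the SD between probes or the log2 error that the scanner software assigns, and describe measurement alone. A bound ("at least") sets the bright channel against the larger of 2 values, the dim channel's own signal or the array's lowest signal counted as well above background, on loess-normalized, between-array scaled levels; dye bias can affect it.

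Names followed a RefSeq table of GRCm38.p6, which matched 79.4% of 41174 probes. Lung spots of the authors' deposited table were joined by spot number, assuming the same design. The liver and stomach values in that table equalled the scanner ratios. Its 4 signal and background columns, which name no sample, were not used. Named genes are the 7 described genes and members of 4 related lists past 2-fold (log2 ratio of at least 1 in size). Some members below 2-fold were named for comparison, chosen after their values were seen. The 3 nearest genes of each described gene were also taken, though not all are printed. The genes and lists were chosen with earlier results of these data known. Ratios were summarised in Python 3.11.15 (numpy 2.4.6, pandas 2.3.3).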

Additional observations from a re-analysis of the deposited data

Results flagged for a closer look

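Nucb2, on the list of other gut hormones and peptides, had opposite signs in the 2 organs, with a log2 ratio of 0.41 (scanner error 0.41) in liver and -1.38 (scanner error 0.23) in stomach. Each value exceeded its own measurement error, the former only marginally. The difference between the organs was not tested, since each had 1 array.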

How the results depend on the processing

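Of 168 alternative values for the described genes, the counts and the 5 list medians, 144 stayed within their measurement error (counts within 1.5 times) and 24 moved; no value past 2-fold changed sign. Median centring with no loess curve gave stomach ratios of -2.53 (Ghrl), -1.22 (Sst), 0.54 (Gast), -2.89 (Chga) and -2.43 (Chgb), and liver ratios of 0.39 (Ghrl), 0.74 (Gast) and 0.11 (Chga). Hdc in stomach was -2.56 with a normexp offset of 16 and -2.96 with the scanner software's ratio, and so was the median of the 7 genes, since Hdc is its middle gene. Chgb in stomach was -1.56 with no background filter, which adds its dim probe. Counts of 2-fold genes in stomach, 358 Cy3-high and 221 Cy5-high, became 235 and 1017 with median centring and 1049 and 1093 with the scanner's ratios, and 358 Cy5-high with offset 16; 38.2%, 81.2% and 51.0% of called genes were then Cy5-high. Counts in liver, 18 and 39, became 57 and 71 with offset 16, 7 and 110 with median centring and 420 and 541 with the scanner's ratios, with Cy5 shares of 68.4%, 55.5%, 94.0% and 56.3%. The cause was not tested, except where stated. Among the marker lists, 14 of 108 medians moved. Signal over background limits Hdc and Chgb in liver most, where scanner errors reached 1.28 and 1.72, the latter with the dim Chgb probe averaged in. No paired analysis was possible because each organ had a single array; leaving out a replicate was not possible for the same reason.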

Other observations

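In the authors' deposited table for lung, several gut hormone and granule genes were listed, with log2 ratios of red over green. On the Cy5 side were Npy, a neuropeptide (3.89), Nucb2 (2.33), the secretin gene Sct (2.28), Nts, the neurotensin precursor (1.53), and Adcyap1 (1.19), all from the list of 21 other gut hormones. On the Cy3 side were Grp, the gastrin-releasing peptide, and Ppy (-1.56). Of the granule and processing genes, Cpe (1.80), Furin (1.71), Pcsk1 (1.17) and Ddc were Cy5-high and Pam (-1.83) and Syt7 (-1.12) Cy3-high. Cpe and Furin were Cy3-high on the stomach array. The heading for raised genes holds 5.51% of gene spots and that for lowered genes 9.78%. These genes were named because the table lists them, after their values were seen.

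Of the receptors and factors in the same table, Calcrl (-4.52), Cckar (-3.12), Ramp1 (-1.96) and Sstr4 (-1.23) were Cy3-high, as were Foxa2 (-2.56) and Etv1 (-1.14). Pdx1 (2.33), a factor of antrum, duodenum and pancreas, Kcnq1 (2.18), Rfx6 (1.26) and Hrh1 (1.06) were Cy5-high. The gastric peptides Tff2 (3.95) and Gkn2 (3.31) were Cy5-high in lung; on the stomach array Tff2 had 1.17 and Gkn2 -0.67. Cckar was Cy3-high on both the stomach array and in this table.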
